A study of Mus musculus with 2 samples.

Results

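Control-only intergenic regions are stretches of open chromatin that were listed in the control library alone and that lay away from every annotated gene. The peaks of both libraries were merged wherever they shared at least 1 bp, on the autosomes, which gave 28403 regions. A region was kept when it held a control peak and no knockout peak, lay outside all RefSeq genes of the mm10 build and was more than 1 kb from every gene end. The rule left 1702 regions, 5.99% of all regions, and each consisted of 1 control peak. The members were chosen by the measured peak calls of both lists and by position, so their presence in one list and absence from the other is a description and not a finding. Open chromatin had been mapped by ATAC-seq, in which a transposase cuts accessible DNA and tags it for sequencing, in fetal liver cells of C57BL/6 embryos at stage E14.5, sorted as free of lineage markers and bearing c-Kit. The knockout library (replicate 2) came from CD45.2(+) Vav1-iCre Brd9fl/fl cells and the control library (replicate 1) from CD45.2(+) Brd9fl/fl cells, 150000 cells each, so both carried the floxed Brd9 alleles and only the knockout carried iCre. The fathers were Brd9fl/fl and the mothers Vav1-iCre; Brd9fl/fl. Vav1 regulatory DNA is active in blood cells, so a cell of another kind in the gate may keep Brd9. Deletion of Brd9 was not measured here. How many embryos were pooled for a library was not stated. With 1 library per genotype, genotype cannot be told apart from any other difference between these embryos or libraries, and no p-value was computed.

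Open sites far from genes are often enhancers, which bind transcription factors and act on promoters at a distance. BAF complexes use ATP to slide or evict nucleosomes and thereby keep such sites open. BRD9 is a bromodomain protein, a reader of acetylated lysine, and marks the non-canonical form of the complex. In the fetal liver, c-Kit-positive cells without lineage markers include the stem and progenitor cells from which red cells, platelets and white cells are formed.

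The genome sequence under the members was not used here, so the sequences shown are those of genes beside them, from RefSeq (GRCm38.p6). Of 1136 autosomal microRNA genes, 8 had a member within 5 kb, 19 a shared intergenic region and 2 a knockout-only intergenic region. The mature microRNAs shown are those of blood-related loci and of the members with the most reads near a microRNA gene, with bases 2 to 8, the seed that pairs with target RNAs, in capitals. MiR-125b is known for expanding blood stem cells, the miR-181 family for its part in lymphocyte development, and the Mir150 gene for its activity in lymphocytes. MiR-181c and miR-181d have the same seed and lie side by side, so 1 member, of 11 reads (95% interval 5.49 to 19.7), serves both.
miR-125b-5p: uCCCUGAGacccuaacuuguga
miR-181c-5p: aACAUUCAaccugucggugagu
miR-181d-5p: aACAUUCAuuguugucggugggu
miR-150-3p: cUGGUACAggccugggggauag
miR-7a-5p: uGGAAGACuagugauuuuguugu
miR-6913-5p: uGGGAGACcagucagguguugg

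The member at Mir125b-2 (chr16:77644143-77644608, mm10) lay 1665 bp from the gene and had 9 summit reads, the number of extended reads covering the highest point of the peak. The member at Mir181c and Mir181d (chr8:84180277-84180905) lay 1316 and 1490 bp from them. That at Mir150 (chr7:45117348-45118039) lay 3718 bp away with 21 reads, and that at Mir7-1 (chr13:58388087-58388784) 3995 bp away with 31 reads. These 4 members were weak to moderate. Mir6913 was close to one of the strongest members, a peak of 178 reads between Fzr1 and Dohh, 3862 bp from the microRNA gene. Mir675 and Mir7652 had members of 15 and 14 reads at 3186 and 1771 bp.

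Promoters are shown for 4 blood genes with a member within 50 kb, chosen after the values were seen. They were taken because a region of both lists overlaps each promoter, while the member was listed in the control alone. Each runs from 250 bases before the gene's start to 50 bases after it, 5′ to 3′ on the gene's strand, with GATAA in capitals, the core of the site bound by GATA factors of blood cells.
Gfi1b (chr2:28621933-28622232, minus strand): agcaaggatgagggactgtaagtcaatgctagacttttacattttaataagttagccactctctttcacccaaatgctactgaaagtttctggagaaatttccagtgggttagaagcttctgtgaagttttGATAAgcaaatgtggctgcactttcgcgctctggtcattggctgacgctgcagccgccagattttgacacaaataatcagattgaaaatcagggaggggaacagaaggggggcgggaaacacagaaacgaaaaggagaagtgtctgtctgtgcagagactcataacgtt
Hemgn (chr4:46404134-46404433, minus strand): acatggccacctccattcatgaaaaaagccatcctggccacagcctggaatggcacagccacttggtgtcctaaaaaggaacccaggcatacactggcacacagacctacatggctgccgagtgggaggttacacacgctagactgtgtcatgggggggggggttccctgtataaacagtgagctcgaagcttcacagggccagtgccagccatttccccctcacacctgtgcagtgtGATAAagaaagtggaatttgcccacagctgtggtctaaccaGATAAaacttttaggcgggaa
Lyl1 (chr8:84701207-84701506, plus strand): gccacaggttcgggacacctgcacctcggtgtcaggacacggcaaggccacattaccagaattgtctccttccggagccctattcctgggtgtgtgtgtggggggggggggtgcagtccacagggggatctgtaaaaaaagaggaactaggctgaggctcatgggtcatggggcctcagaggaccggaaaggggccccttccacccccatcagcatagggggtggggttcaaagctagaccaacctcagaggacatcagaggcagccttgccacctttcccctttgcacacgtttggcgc
Pf4 (chr5:90772185-90772484, plus strand): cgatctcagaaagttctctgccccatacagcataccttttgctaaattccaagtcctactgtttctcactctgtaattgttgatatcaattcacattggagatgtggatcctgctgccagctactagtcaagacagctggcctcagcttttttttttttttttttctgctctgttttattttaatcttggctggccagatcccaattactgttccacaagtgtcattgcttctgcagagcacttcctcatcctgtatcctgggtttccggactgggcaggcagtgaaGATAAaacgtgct

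The letters GATAA, or TTATC for the other strand, stood once in the Gfi1b and Pf4 promoters, at 2 places in that of Hemgn and not in this window of Lyl1. They occur in 25.2% of 31223 RefSeq promoters of 300 bases, and a match is a description of the letters, not a measured binding site. Gfi1b encodes a repressor needed for red cells and platelets. Its promoter region had 29 knockout and 55 control summit reads, a scaled ratio of 0.823 (95% interval 0.506 to 1.31), where 1 means equal after the difference in depth. The Gfi1b member lay on the side of the gene's 3′ end, 6819 bp away, with 145 control reads (122 to 171). Its local background was high, at 36.0 reads, which gave a fold of 3.94, and a knockout peak was 2958 bp away. Hemgn encodes hemogen, a nuclear protein of blood progenitors. Its promoter had 77 knockout and 142 control reads (0.847, 0.633 to 1.13), and a member of 63 control reads lay 2870 bp from the gene on the promoter side. Lyl1 encodes a basic helix-loop-helix factor of blood stem cells. Its promoter had 283 knockout and 336 control reads (1.32, 1.12 to 1.55), and a member of 45 control reads lay 44009 bp away on the promoter side. Pf4 encodes platelet factor 4. Its promoter had 19 knockout and 17 control reads (1.75, 0.859 to 3.57), and a member of 34 control reads lay 2039 bp past the 3′ end. Of the 4 promoters, Lyl1 alone had an interval apart from 1, above it, while the intervals at Gfi1b, Hemgn and Pf4 held 1.

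Most members were low. The median was 14 summit reads (7 to 178, middle 50% of members 10 to 19), against a median of 30 control reads at the 2239 shared intergenic regions and 9 knockout reads at the 969 knockout-only intergenic regions. The 9 reads come from the shallower knockout library and are not on the scale of the control medians. Of the members, 460 had fewer than 11 reads, 401 at least 20, 79 at least 40 and 6 at least 100. The local background was at its lowest value, 1.52 reads, at 812 members (47.7%), and 40 members had a background of 10 reads or more. The authors' −log10 q had a median of 5.95, from 1.32 to 86.0, and their fold over background a median of 4.96. The members covered 1.02 Mb in all. As a class they took 25.5% (24.5 to 26.6) of the 6667 control-only regions, against 26.1% (24.7 to 27.5) for intergenic regions among the 3713 knockout-only regions and 12.4% (11.9 to 12.9) among the 18023 shared regions. Of the 4910 intergenic regions 34.7% were control-only, where 23.5% of all regions were. Members were about as high as the other control-only regions, whose medians were 14 reads inside genes and 15 at gene ends.

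**Figure D1:**
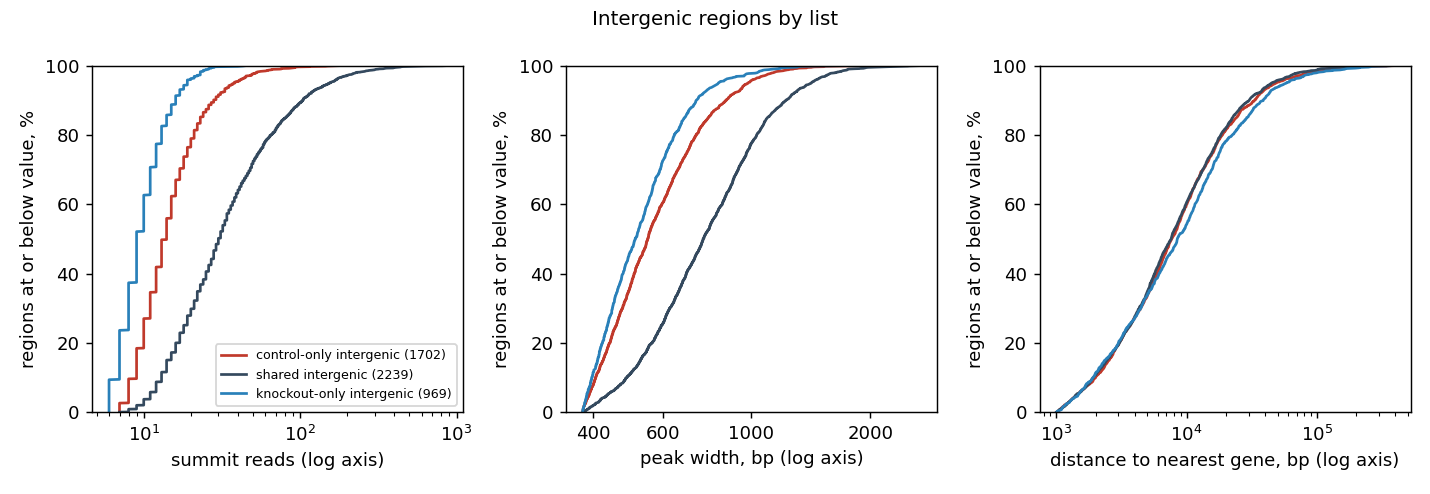
Cumulative share of intergenic regions (percent) against summit reads, peak width in bp and distance to the nearest gene in bp, each on a log axis, for control-only (1702), shared (2239, control peak) and knockout-only (969) regions. The members, with a median of 14 reads and 549 bp, lie between the other sets in width and in reads as counted. The distance curves run close together. Reads are not scaled for depth, and at the knockout depth the members' median would be 8.96, against 9 for knockout-only regions.

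The members were narrow as well as low. Their median width was 549 bp (middle 50% 457 to 689), against 757 bp for the control peaks of shared intergenic regions and 510 bp for knockout-only peaks. Peaks under 500 bp made up 37.4% of members and 11.5% of shared intergenic regions, and peaks of 1000 bp or more 4.35% and 22.6%. The gap remained at like height. At 7 to 10 reads the medians were 492 bp for members and 516.5 bp for shared regions. At 11 to 20 reads they were 559.5 and 616.5 bp, and at 21 to 40 reads 618 and 765.5 bp. At 41 to 80 reads they were 585.5 bp for 62 members and 852 bp for 465 shared regions. Above 80 reads they were 621 bp for 14 members and 971.5 bp for 338 shared regions. The shared regions thus widened with height throughout, while the members widened up to 40 reads and showed no clear rise beyond, in classes of 62 and 14. A wide peak overlaps a knockout peak more easily, and the part of the overlap rule in this gap was not tested.

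The knockout library was the shallower, with a depth of 0.640 relative to the control, taken from the lowest background of each list. At that depth the members' own signal would give a median of 8.96 reads, next to the 9 of the knockout-only intergenic regions. The lowest peak in the knockout list had 6 reads, and the 10th percentile of its peaks was 9 reads. At the knockout depth, 1388 members (81.6%) would reach 6 reads, 750 (44.1%) would reach 9, and 284 (16.7%) would reach 9 at the lower end of their interval. Reaching such a count does not mean that a peak would be called, so a missing knockout peak does not by itself show a closed site. Of knockout intergenic regions with 7 to 13 reads, 54.6% had no peak even in the deeper control list. The reckoning at the knockout depth leaves out the counting error of knockout reads. It also leaves out the local background, whose median was 8.23 reads at the 76 members with 41 reads or more. Reads of the knockout library under the members were not analysed here.

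Low regions were listed in one library alone far more often than high ones. Among intergenic control regions, the share without a knockout peak was 84.6% (81.2 to 87.5) at 7 to 10 reads, 60.2% (57.7 to 62.7) at 11 to 20, 26.9% (24.2 to 29.6) at 21 to 40, 11.8% (9.14 to 14.8) at 41 to 80 and 3.98% (2.19 to 6.58) above 80. Gene-end regions of like height were listed alone less often, at 48.3% (45.7 to 50.95) for 11 to 20 reads and 17.6% (15.8 to 19.5) for 21 to 40. Above 80 reads their share was 0.320%, but this class has no upper bound, so heights within it were not matched. Regions inside genes stood close to the intergenic ones up to 20 reads, at 84.4% and 61.3%, and at 31.2% (29.3 to 33.1) for 21 to 40 reads, with an interval that met the intergenic one. Intergenic and gene-end shares had intervals that did not meet from 11 reads upward. In the reverse direction and at heights scaled for depth, 54.6% of knockout intergenic regions with 7 to 13 reads had no control peak, 15.0% with 14 to 26, and 1.71% with 27 to 51. None of 273 with 52 or more was listed in the knockout alone, where the limit is 1.099% at 3 counts and 1.34% by the exact interval.

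Strong one-list regions were therefore more common on the control side. Of intergenic control regions with at least 41 reads, 8.65% (6.87 to 10.7; 76 of 879) had no knockout peak, against 1.08% (0.468 to 2.12; 8 of 740) of knockout regions with at least 27 reads without a control peak. The same held inside genes, at 6.29% and 1.41%, and at gene ends, at 1.52% and 0.436%, so the direction was not particular to intergenic sites. Width moved with this share. Of strong intergenic control regions, 36.4% (26.9 to 46.6; 36 of 99) of those under 600 bp were listed alone, 9.76% (24 of 246) of those from 600 bp to under 800 bp and 2.996% (1.72 to 4.82; 16 of 534) of wider ones. Among strong knockout regions these were 3.47% (5 of 144), 0.851% and 0.277%. The control side was thus higher in each width class, and the part that peak calling plays at narrow sites was not tested. The 41 and 27 reads match heights in a region's own list alone. A control region was looked for in the shallower list and a knockout region in the deeper one, and the part of this in the difference was not tested.

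**Figure D2:**
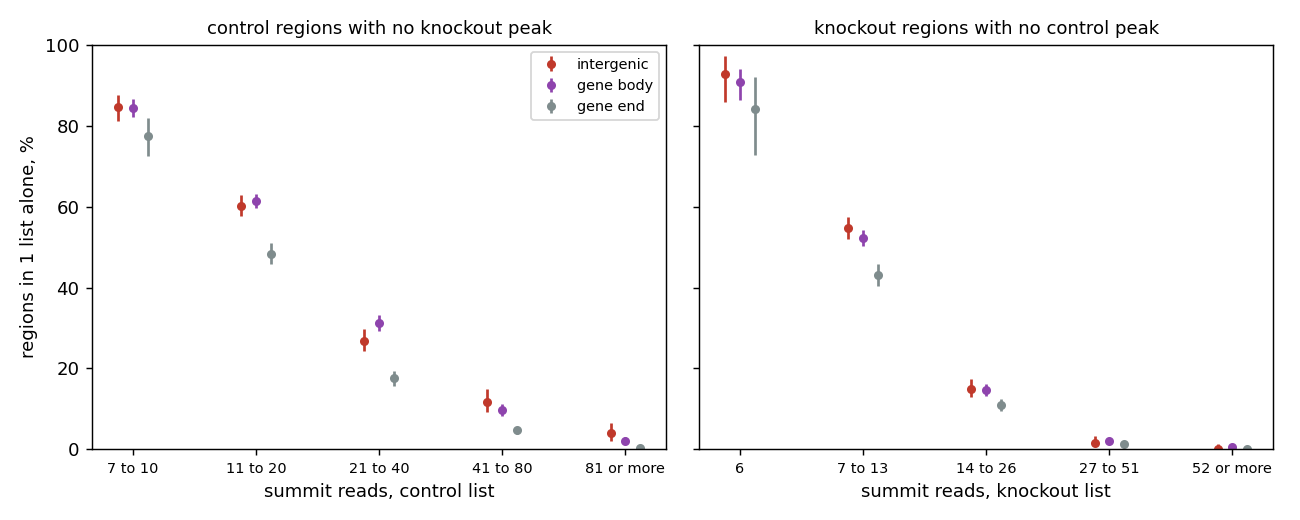
Share of regions (percent, points with exact 95% Clopper-Pearson intervals) listed in one library alone against summit reads, for control regions on the left and knockout regions on the right, by place. Intergenic control regions go from 84.6% at 7 to 10 reads to 3.98% above 80, and gene-end regions lie lower from 11 reads upward.

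The 20 members with the highest −log10 q had 42 to 178 control reads and widths of 384 to 1421 bp. The first lay 35091 bp from Hunk, a kinase gene (chr16:90349659-90350193, 535 bp), with 92 reads (74.2 to 113) over a background of 4.06. Next came a member 2983 bp from Frat1, which encodes an inhibitor of the kinase GSK3 (chr19:41835566-41836174), with 163 reads (139 to 190) over 20.2. A member 85913 bp from the lncRNA gene Gm35023 had 93 reads, and one 5555 bp from the lncRNA gene Wincr1 had 85. These 4 show that both isolated peaks and peaks on a raised background reached the top. Between the pseudogene Gm6969 and Klf11, a Krüppel-like factor gene, a member had 93 reads, and one 2447 bp from Fam117a had 150 over a background of 26.1. Selenbp2 had a member of 66 reads at 6589 bp, and Cibar2 one of 62 reads at 1370 bp. The most reads were found 1949 bp from Dohh, the deoxyhypusine hydroxylase gene (chr10:81382102-81382485), with 178 (153 to 206) over a background of 51.3 and a width of 384 bp.

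One of the 20 lay 1951 bp from Fech, which encodes ferrochelatase, the last enzyme of heme synthesis, with 97 reads (78.7 to 118) over a background of 16.6. The Fech gene-end region had 51 knockout and 111 control reads, a scaled ratio of 0.718 (0.505 to 1.01). Gfi1b was another blood gene among the 20. The others lay beside Gm26698 (87 reads, 1421 bp wide), Gm7413 (90), Gm9836 (54), Tspan15 (62), Noto (49), Gm34490 (42), Rab38 (44), Elovl3 (49) and Pou2f1 (45), the last of which encodes the octamer-binding factor OCT1. The nearest gene was protein-coding for 13 of the 20, and 14 lay within 10 kb of a gene. A knockout peak stood within 5 kb of 6 of them, the closest 978 bp from the Gm26698 member, and none within 50 kb of 5. Of all 76 members with 41 reads or more, 47 (61.8%) had a knockout peak within 5 kb, against 279 of the 1702 members (16.4%), so strong members more often lay close to a site listed in the knockout. Of the 20 highest-ranked members, 6 had a background of 10 reads or more. The nearest coding gene had a gene-end region in both lists for 16 of the 20, with scaled ratios from 0.718 to 1.49. The interval held 1 for 14 of these, and for Slc30a10 (0.833, 0.698 to 0.991) and Slc16a1 (0.775, 0.623 to 0.960) it lay below 1. Slc30a10 and Slc16a1 lay 262192 and 52930 bp from their members, which were nearer to the lncRNA genes Gm35023 and Gm34490. Most gene ends of the nearest coding genes thus had counts that did not part the libraries beyond counting error.

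**Figure D3:**
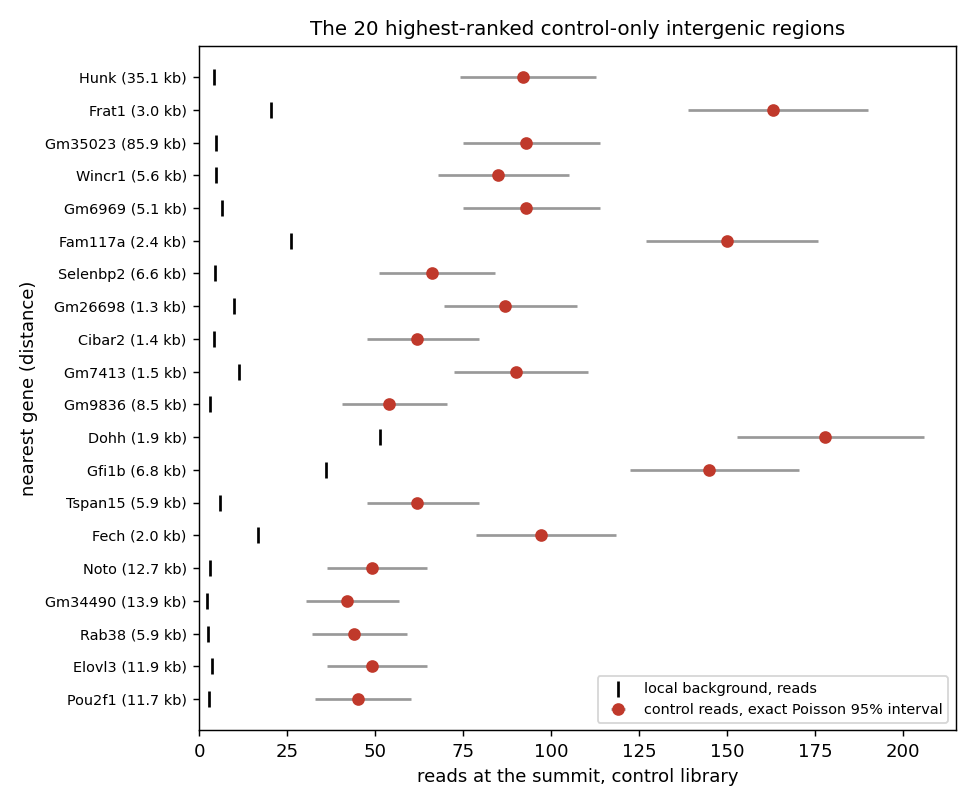
Control summit reads (red points, with exact Poisson 95% intervals) and local background in reads (black ticks) of the 20 highest-ranked members, named by the nearest gene and its distance. Dohh has the most reads, 178, and also the highest background, 51.3, whereas Hunk has 92 reads over 4.06.

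The 5 widest members were weaker. The widest, 1891 bp, lay 2321 bp from Abtb1 and 3343 bp from Mgll, with 32 reads (21.9 to 45.2). It was followed by members of 1786 bp and 58 reads at Fosb, an AP-1 subunit gene, and of 1674 bp and 23 reads at Gm28643, 66392 bp from Zeb2, a repressor gene of blood development. Members of 1539 bp and 38 reads at Prelp and of 1534 bp and 20 reads at Gsap came next. The Abtb1 gene end had 529 knockout and 689 control reads (scaled ratio 1.20, 1.07 to 1.34). That of Fosb had 73 knockout and 105 control reads (1.09, 0.794 to 1.48). None of the 5 had a knockout peak within 5 kb, and for the Fosb member it was at 5275 bp.

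The 5 members farthest from any gene lay 208749 to 389075 bp away. The farthest, on chromosome 5 (40952533 to 40953028), had 8 reads (3.45 to 15.8), close to the lowest of all members. A pair on chromosome 11, 349268 and 208749 bp from the pseudogene Gm12010, had 44 (32.0 to 59.1) and 14 reads, and their nearest coding gene was Vstm2a. A member 343635 bp from Gm11997 had 14 reads, and one 599017 bp from Auts2 had 11. Distance from genes therefore did not mean weak signal in each case, with 44 reads at one of the 5. Over all members, the median distance to the nearest gene fell from 8610.5 bp at 7 to 10 reads to 6562 bp at 21 to 40 and 2400.5 bp above 80 reads, a class of 14 members. Shared intergenic regions fell in the same order, from 11169 to 7687.5 and 5380.5 bp.

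Some members stood in runs. With gaps of at most 50 kb, 35 runs of 3 or more held 118 members (6.93%), against 86 runs with 295 of 2239 shared intergenic regions and 7 runs with 21 of 969 knockout-only intergenic regions. The numbers of regions differ, so the numbers of runs do not compare the sets directly. The longest run had 10 members over 272 kb on chromosome 13 (51799657 to 52071175), on both sides of Gadd45g, a stress-induced regulator of growth arrest and MAP kinase signalling. Its members had 13, 20, 23, 48, 8, 7, 15, 31, 10 and 9 reads from left to right. Only 4 of these exceeded 15 reads. The span also held 3 knockout-only regions, of 22, 9 and 12 reads, and 4 shared ones. The gene-end regions of Gadd45g had 98 knockout and 173 control reads (scaled ratio 0.885) and 99 knockout and 147 control reads (1.05). The signal at the gene itself thus stayed near equal after scaling, and both kinds of one-list region stood around it.

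Between Sp3, a zinc finger factor gene, and Ola1, 5 members stood within 33.1 kb on chromosome 2 (73005713 to 73038815), with 26, 44, 55, 28 and 14 reads. No knockout-only or shared region lay among them. Runs of 4 members without a knockout-only region among them stood between Tlk1 and Mettl8 (14, 23, 19 and 8 reads), Ahdc1 and Wasf2 (27, 18, 10 and 8), Gng2 and Saysd1 (19, 15, 16 and 12) and beyond Gfra2 (15, 13, 16 and 9). Of these runs, that of Gng2 held a shared region as well. All of their members had 27 reads or fewer.

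Of the runs of 3 members, the 4 with the most summed reads are described. Between Rmi1 and Slc28a3, 3 members had 10, 50 and 49 reads, and a shared region among them had 9 knockout and 23 control reads (scaled ratio 0.611). Around Tnfrsf14, which encodes the receptor HVEM of lymphocytes, 3 members had 39, 16 and 42 reads. The Tnfrsf14 gene-end region had 21 knockout and 71 control reads, a scaled ratio of 0.462, and the shared intergenic region beside it had 34 knockout and 70 control reads (0.759). Between Hemgn and Nans, around Anp32b, 3 members had 63, 15 and 16 reads, while the Anp32b gene end had 101 knockout and 182 control reads (0.867). The same span held a knockout-only region of 13 reads. Around Timeless, a circadian and replication fork gene, and Mip and Apon, 3 members had 45, 22 and 15 reads, and the shared gene-end region there had 43 knockout and 109 control reads (0.616). Shared regions inside the Rmi1, Tnfrsf14 and Timeless runs thus had scaled ratios below 1, while the one inside the Gng2 run had 14 knockout and 17 control reads (1.29). The other shared regions of the Hemgn run had ratios of 0.862, 1.56, 0.827 and 0.961. The shared intergenic regions of the Gadd45g run had 0.852 and 1.04. These ratios rest on few regions, some with low counts, so no direction common to the runs is shown.

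**Figure D4:**
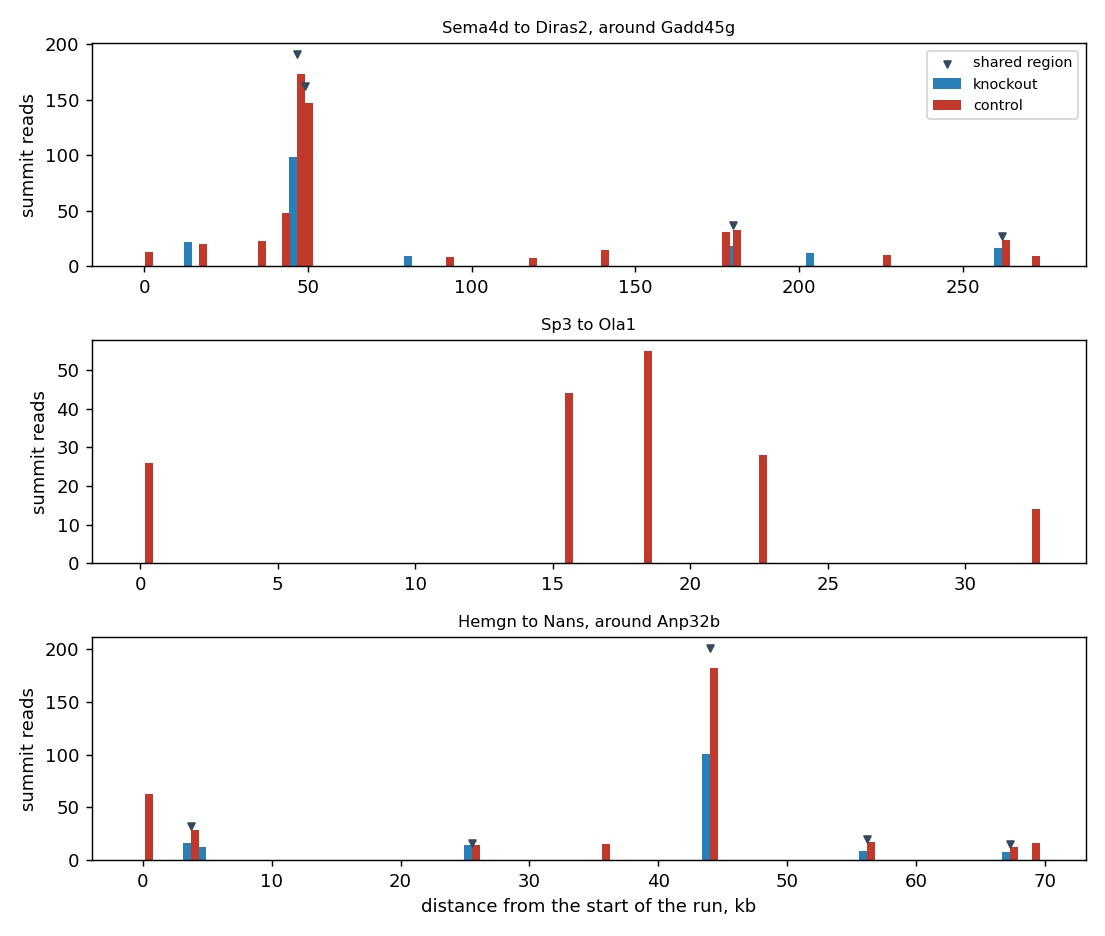
Summit reads (bars, knockout left of control in each pair) against distance from the start of the run in kb, for regions in 3 runs of members, with triangles over shared regions. Red bars without a triangle are control-only regions, such as the 5 between Sp3 and Ola1 with 14 to 55 reads, and blue bars without one are knockout-only regions.

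Per gene, 2519 of 20665 autosomal protein-coding genes had 1 member within 50 kb, 322 had 2, 51 had 3 and 4 had 4 or 5. Gadd45g and Sema4d had 5 each, of which they shared 4, and Ahdc1 and Sp3 had 4. Over all coding genes, members were 5.04% (4.78 to 5.31) of the regions within 50 kb, and 14.01% of genes had at least 1. Genes with more open sites around them have more chances to have a member, so shares of regions were compared and not shares of genes.

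Stem and progenitor genes had 15 members among 154 regions within 50 kb, a share of 9.74% (5.55 to 15.6), at 12 of the 30 listed genes. Besides Gfi1b and Lyl1, the strongest was 16975 bp from Erg, an ETS factor gene needed for stem cell maintenance, with 24 reads (15.4 to 35.7). Fli1, a related ETS factor gene, had 3 members with 15, 14 and 11 reads, 1 of them 76 bp from a knockout peak. Mecom and Tal1, genes of stem cell transcription factors, had a member of 15 reads each, at 5174 and 13979 bp. Runx1, a master regulator of definitive blood formation, had 1 of 14 reads at 35116 bp. Lmo2 and Procr had 11 each. Kit, Gata2 and Zfpm1 had members of 8 or 9 reads. At these loci shared regions remained the majority in several cases, such as 10 of 13 at Zfpm1, 8 of 13 at Runx1 and 7 of 9 at Lyl1. They were 3 of 6 at Kit, 4 of 12 at Fli1, 1 of 6 at Erg and 0 of 3 at Procr.

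Erythroid genes had 9 members among 175 regions, 5.14% (2.38 to 9.54), next to the share over all coding genes. The β-globin cluster had 1 member, 4057 bp from Hbb-bt and 43287 bp from the embryonic gene Hbb-y (chr7:103807998-103808467), with 21 reads (13 to 32.1) over a background of 5.26, and a knockout peak was 657 bp away. The α-globin cluster had 1 of 11 reads, 36239 bp from Hba-a1. Both clusters hold near-identical gene copies, where the counting of reads is uncertain. Aqp1, a water channel gene of red cells, had a member of 29 reads. Ermap, a red cell membrane adhesion gene, had another of 29 reads, which was closer to the glucose transporter gene Slc2a1, at 4802 bp. The Ermap gene end had 63 knockout and 167 control reads (scaled ratio 0.589), whereas that of Slc2a1 had 181 knockout and 226 control reads (1.25, 1.02 to 1.53), so the gene ends on either side of this member differed in direction. Rhd had 1 of 25 reads over a background of 10.1, and Car2, a carbonic anhydrase gene, 1 of 21 reads at 1280 bp. Nfe2, Tspan33 and Bcl11a had 10 or 11 reads.

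Megakaryocyte genes had 10 members among 84 regions, 11.9% (5.86 to 20.8), a share with a wide interval. The other intergenic regions among the 84 were 3 shared and 2 knockout-only ones. Pf4, with Ppbp beside it, had the strongest, of 34 reads, and 3 of the 10 were those at Fli1. Gp1bb, a gene of the platelet receptor for von Willebrand factor, had members of 22, 8 and 7 reads, Treml1 had 1 of 17 and Itgb3, the platelet integrin β3 gene, 1 of 14. Mast cell and basophil genes had 5 members among 19 regions, 26.3% (9.15 to 51.2). Of these, 3 were at Kit and Gata2, which the stem and progenitor list holds too. The remaining ones were a member of 17 reads 3447 bp from Ms4a2, which encodes the β chain of the high-affinity IgE receptor, and 1 of 13 reads beside Ctsg that Mcpt8 and Mcpt4 also count. Ms4a2 and Mcpt8 had no other region within 50 kb in either list, so members were all that was listed there.

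Granulocyte and monocyte genes had 7 members among 84 regions, 8.33% (3.42 to 16.4). Itgam, the CD11b gene, had a pair with 21 and 10 reads and no shared region, Klf4 had 1 of 18, Gfi1 1 of 16 and Cebpa, the C/EBPα gene, 1 of 8. The strongest within 100 kb had 33 reads, 54220 bp from Spi1, the gene of the myeloid factor PU.1, whose gene end had 38 knockout and 30 control reads (scaled ratio 1.98). T and NK genes had 7 among 74, 9.46% (3.89 to 18.5), with 26 reads 2086 bp from Zbtb16, 23 near Tbx21, the T-bet gene, a pair of 19 near Runx3, and 21 at Cd3g over a background of 7.95. Within 100 kb the strongest had 40 reads, 4400 bp from Egfl7 and 71839 bp from Notch1, whose gene end had 33 knockout and 28 control reads (1.84). B-lymphoid genes had 2 among 71, 2.82% (0.343 to 9.81), of 34 reads near Cd79a and of 17 reads 2959 bp from Rag1. Together the 7 blood lists counted 47 different members, with a median of 15 reads. Of these, 2 had 40 reads or more, within 50 kb of Gfi1b and of Lyl1, and the latter was nearer to another gene. Members at blood gene loci were thus about as high as members at large, whose median was 14.

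Around markers of other fetal liver cells, hepatocyte genes had 2 members among 34 regions, 5.88% (0.720 to 19.7), at Apoa2 (10 reads) and Hnf4a (23, closer to Ttpal), and endothelial genes 1 among 42, 2.38% (0.0603 to 12.6), at Pecam1 (11). Macrophage genes had 0 among 16, where the limit is 18.75% at 3 counts and 20.6% by the exact interval. Stromal genes had 0 among 24, with limits of 12.5% and 14.2%. The 5.04% over all coding genes lay inside each of these intervals. Within 100 kb, the strongest members near macrophage and stromal genes had 10 reads, 86972 bp from Maf, and 21 reads, 82471 bp from Pdgfra. These lists had 16 to 42 regions around 10 to 14 genes each, and peaks give no expression level. Kit, the gene of the receptor used in the sort, had 3 shared, 2 control-only and 1 knockout-only regions within 50 kb.

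BAF subunit genes had 9 members among 190 regions, 4.74% (2.19 to 8.80). Dpf3 had 1 of 33 reads over a background of 11.7, Smarcb1 1 of 18, Smarca4, the BRG1 ATPase gene, 1 of 14 and 1 of 9, and Actl6a 1 of 14 and 1 of 13. Within 100 kb the highest-ranked had 21 reads, 83659 bp from Arid2, whose gene end had 107 knockout and 291 control reads (scaled ratio 0.574). Genes of the p53 pathway and cell cycle had 4 among 130, 3.08% (0.845 to 7.69), with 24 reads 1753 bp from Ccnd1, the cyclin D1 gene, 22 between Myc and Pvt1, 19 near Cdkn1b and 15 near Trp53. Housekeeping genes had 12 among 120, 10% (5.27 to 16.8), as high as the stem and progenitor list, with 7 to 24 reads. Of the 14 lists, 8 lay above the share over all coding genes and 6 below it, and 4 had an interval entirely above it, the stem and progenitor, megakaryocyte, mast cell and housekeeping lists. The window decided most of these: within 20 kb, where all coding genes had 3.98%, the mast cell list and the T and NK list lay above, and within 100 kb, at 5.51%, the mast cell and the stem and progenitor lists did.

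Shared intergenic regions had medians near 0 at each distance from members. The median log2 scaled ratio, knockout over control, was 0.08 (−0.07 to 0.18) for 103 regions up to 5 kb from a member, −0.09 (−0.18 to 0.01) for 269 from 5 to 20 kb, −0.03 (−0.07 to 0.04) for 502 from 20 to 100 kb and 0.02 (−0.01 to 0.06) for 1365 farther away. Within 20 kb of a knockout-only intergenic region the median was 0.01 (−0.09 to 0.09) for 204 regions. These medians pool opposite leans by height, which were found near members and far from them. In the lowest quartile group by reads, the medians were 0.18 (0.11 to 0.36) for 82 regions within 20 kb of a member and 0.23 (0.16 to 0.30) for 477 farther away. In the highest, they were −0.17 (−0.23 to −0.08) for 104 within 20 kb and −0.12 (−0.16 to −0.07) for 456 farther away. Shared regions had to be listed in both libraries, so a site lost from the knockout list next to a member is not among them. At low height this condition also favours regions whose reads ran high in the shallower library. Its part in the leans by height was not tested.

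**Figure D5:**
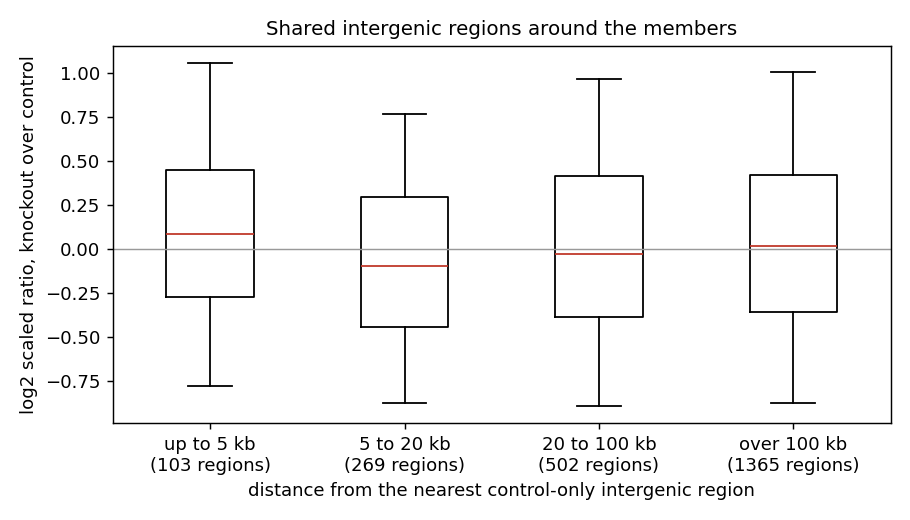
Log2 scaled ratio of summit reads, knockout over control, at shared intergenic regions by distance to the nearest member (boxes, middle 50% with the median in red; whiskers, 5th to 95th percentile). The medians lie between −0.09 and 0.08 in the 4 distance classes.

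The genes beside members also had a median near 0. Of 1211 coding genes nearest to a member and within 50 kb, 743 had a gene-end region in both lists, with a median log2 scaled ratio of 0.01 (−0.02 to 0.03), and over all coding genes it was 0.01 as well. For 53 genes nearest to members with 40 reads or more the median was −0.10 (−0.24 to 0.06), with 31 below 0. Neither differed from all genes beyond its interval.

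In position, the members resembled the other intergenic regions. Their median distance to a gene was 7688 bp (7255 to 8320), against 7613 bp for shared and 8496 bp for knockout-only regions, and to a coding gene 14068.5, 13688 and 15949 bp. Within 5 kb of a gene lay 33.5%, 34.7% and 33.7% of the sets in the same order, and beyond 100 kb 1.59%, 1.25% and 2.06%. The nearest gene was protein-coding for 51.4% of members, a lncRNA gene for 33.1%, a pseudogene for 12.0% and of another type for 3.47%. For shared intergenic regions these were 52.3%, 32.2%, 11.8% and 3.62%. By chromosome, members were 29.4% (24.2 to 35.1) of intergenic regions on chromosome 7 and 40.3% (33.1 to 47.9) on chromosome 16, the lowest and highest share. The difference between these ends, picked as the extremes of 19 chromosomes, was not tested.

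Members had other open sites around them about as often as shared intergenic regions had. Another region of any kind lay within 10 kb of 45.5% of members, 49.3% of shared and 40.9% of knockout-only intergenic regions, and within 50 kb of 86.2%, 87.2% and 80.4%. The nearest knockout peak was at a median of 15470.5 bp. It lay within 10 kb for 624 members (36.7%), within 1000 bp for 46 and within 100 bp for 13, whose median was 12 reads. Just across that edge, 13 shared intergenic regions rested on an overlap of under 100 bp and had a median of 13 control reads. At the edge of the gene rule, 23 members lay up to 1100 bp from a gene with a median of 17 reads, and 15 control-only regions just inside it, at 900 to 1000 bp, had 15 reads. The weakest members had a −log10 q of 1.32 and 7 reads, the lowest number in the control list.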

How the data were processed

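One peak list per library was deposited, so the authors called peaks per sample. Trimmomatic 0.39, Bowtie2 2.4.4, Picard 2.26.2, deepTools 3.5.1, MACS2 2.2.7.1 and the build mm10 are named per the submitters' processing notes, which give no settings. The deposited score was not used. The deposited fold is the ratio of summit pileup to local background, each with a pseudocount of 1, and the authors' −log10 p-value tests that pileup against that background, and the deposited −log10 q-value is its adjusted form. Whole summit reads were recovered from the deposited fold and −log10 p for 100% of peaks, and the recovery was tested on simulated peaks. Absolute depth is unknown. The lowest background, 0.971 in the knockout and 1.52 in the control list, gave the relative depth. This assumes that reads were extended alike in both lists, which was not checked. Scaled ratios are knockout over control reads divided by the relative depth, without 5 peaks per list above 3000 reads.

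Genes came from RefSeq GRCm38.p6, the coordinates of mm10. A region within 1 kb of either outer gene boundary counts as a gene-end region. Shares have exact Clopper-Pearson, reads exact Poisson, ratios conditional binomial and medians order-statistic intervals, all at 95%. They cover counting error only, since reads that lack molecular identifiers may be copies. The members and the 14 gene lists were chosen with earlier results of these data known. Members were named by rule: the 20 with the highest −log10 q, the 5 widest, the 5 farthest from genes, the 10 longest runs and the highest-ranked within 100 kb of each list; the others named at listed genes were chosen after their values were seen. The member this rule gives for the housekeeping list is not reported here. Planned base composition and motif counts under the summits need a genome and were not run. Computation used SciPy 1.17.1, pandas 2.3.3, NumPy 2.4.6 and Python 3.11.15; matplotlib 3.10.9 drew the figures.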

Additional observations from a re-analysis of the deposited data

How the results depend on the processing

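No paired analysis was possible because each genotype has 1 library and the replicate numbers differ, and for the same reason no replicate could be left out. With peaks of −log10 q of at least 5 in both lists, members were 24.2% of control-only regions and 2.52 times as many as knockout-only intergenic regions (1.76 with all peaks), with a median of 606 bp and 17 reads, and the shares listed alone were 68.4% at 11 to 20 reads and 34.4% at 21 to 40. With the 10910 top peaks of each list, 204 members were left, 17.96% of control-only regions, with 816 bp, 50 reads and a ratio of 1.06, so lists of equal length showed no clear excess over knockout-only regions. More than 5 kb from genes stood 1131 members (17.0%; median distance 12026 bp). With protein-coding genes only, 34.9% were intergenic, at 15843 bp. With control peaks of at least 600 bp, an alternative chosen after seeing the data, the shares listed alone were 54.7% at 11 to 20 reads, 20.7% at 21 to 40 and 5.13% above 40. Runs numbered 13 at gaps of 20 kb and 65 at 100 kb. The other 33 values under these alternatives and under other overlaps moved by less than their interval or, for counts, by less than 1.5 times, and no value changed direction. Of 28 list shares at 20 and 100 kb, 27 stayed within their interval; housekeeping genes had 3.45% within 20 kb.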
